A study of Mus musculus with 2 samples.

Results

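The 10 genes described here encode cathepsins, proteases of the lysosome and the endosome. They are Ctsa, Ctsb, Ctsc, Ctsd, Ctsh, Ctsk, Ctsl, Ctso, Ctss and Ctsz, chosen by symbol, and each was found in the gene table and in both transcript tables of both libraries. They are 10 of 55536 annotated genes and of 22028 protein-coding genes. The study measured total RNA after ribosomal RNA depletion in the nucleoplasmic fraction of bone-marrow-derived macrophages, which are primary macrophages grown from marrow precursors. The labels give 1 group of 2 replicate libraries, from C57BL/6J mice, with lipid A at 100 ng/ml for 90 min. Lipid A, the membrane anchor of bacterial lipopolysaccharide, acts through the receptor TLR4. Starting RNA was 1 µg for replicate 1 and 500 ng for replicate 2. The labels tie both libraries to the same donor entry and give neither age nor sex, so the spread between them may be technical. The group has no unstimulated and no cytoplasmic counterpart here, and no value below is a response to lipid A.

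Cathepsins are made as inactive precursors, carried to lysosomes by mannose 6-phosphate receptors and other sorting receptors, and activated there by cleavage. Most belong to the papain family, which cuts with a cysteine, while cathepsin D uses aspartates and cathepsin A a serine. In macrophages they degrade what has been taken up by phagocytosis or autophagy and prepare peptides for antigen presentation. RNA in the nucleoplasm includes transcripts whose splicing or export is not complete, so levels here are of nuclear RNA and not of enzyme.

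Replicate 1 had 22669533 estimated counts and replicate 2 had 14939143. Levels are given as TPM, a relative abundance per transcript length that allows genes to be compared, and 1 TPM in each of the 2 libraries is taken here as the threshold of detection, in the first quantification unless the second is named. Features with an effective length under 200 bases took 73.9% of all TPM in replicate 1 and 57.0% in replicate 2, and mitochondrial transcripts took 4.92% and 12.1% of the counts. The median log2 ratio of TPM between the libraries was -0.38 over the 8572 protein-coding genes detected, replicate 1 over replicate 2, so TPM of most genes read lower in replicate 1. All 7 macrophage markers were detected, led by Lyz2 at 1010 ± 133, Mpeg1 at 472 ± 142 and Adgre1 at 222 ± 39.1 TPM (SD, n = 2 for every mean in the text).

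The cathepsin genes spanned more than 3 powers of 10 in level, and 7 of the 10 reached 100 TPM in each library. Over all protein-coding genes, 1.28% were at that level. Of the 10 members 9 were detected, against 38.9% of all protein-coding genes. The median of the members was 203 TPM in replicate 1 and 241 TPM in replicate 2, beside 6.62 and 8.68 TPM for the protein-coding genes detected. All 10 together took 248810 of the counts in replicate 1, a share of 1.10% with a 95% interval of 1.09% to 1.10% by Wilson's method. In replicate 2 they took 175364, a share of 1.17% with an interval of 1.17% to 1.18%. These intervals cover counting error only. Ctsb alone held 55.1% and 57.1% of the cathepsin counts, and Ctsb with Ctsd 76.8% and 79.1%.

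**Figure D1:**
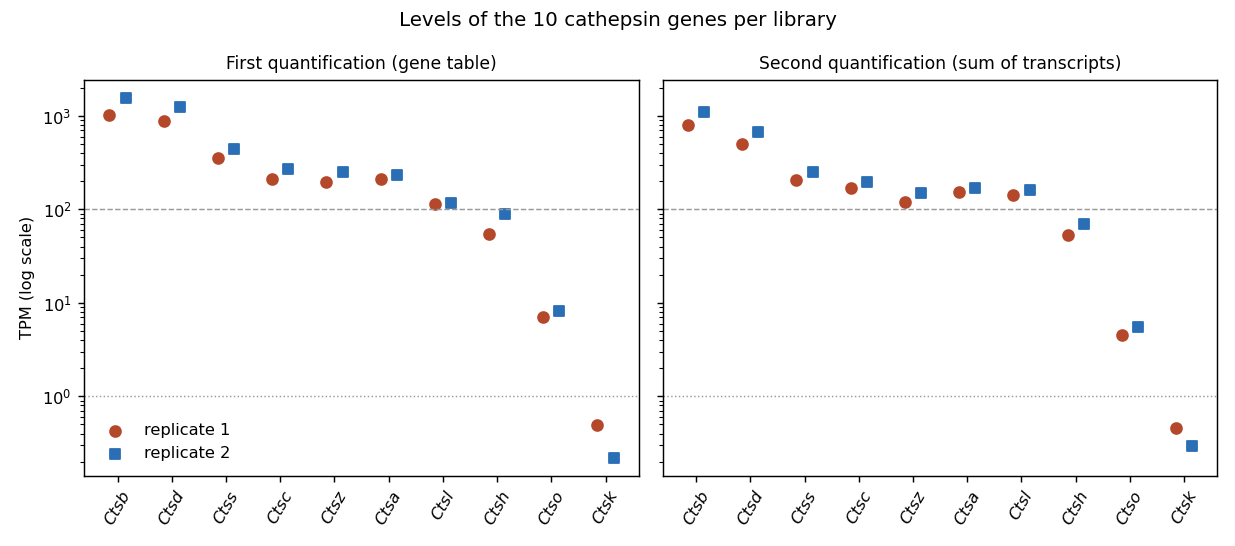
Level of each cathepsin gene in TPM on a log axis, in the gene table of the first quantification (left panel) and as the sum of transcripts in the second (right panel). Circles are replicate 1 and squares replicate 2, with lines at 1 and 100 TPM. Ctsb and Ctsd stand at the top, Ctsh below the 100 TPM line, Ctso near 10 TPM or under it and Ctsk under 1 TPM in each panel.

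Ctsb was the most abundant member. It encodes cathepsin B, a papain-type enzyme that cuts within proteins and also removes dipeptides from their carboxyl ends. The gene (ENSMUSG00000021939.8, mm10 chr14:63122462-63145923, plus strand) had 1017 TPM in replicate 1 and 1559 TPM in replicate 2, from 137086 and 100098 counts. Its mean of 1288 ± 384 TPM was higher than 99.8% of the protein-coding genes detected. Next above it in level were Gpnmb at 1738 ± 489 TPM, a glycoprotein of lysosomes and melanosomes, and Tnfaip2 at 1290 ± 418 TPM. Next below were the mitochondrial gene mt-Atp6 at 1232 ± 1179 TPM and H2-K1, a heavy chain of MHC class I, at 1073 ± 176 TPM.

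Ctsd came next. It encodes cathepsin D, the aspartic protease of lysosomes (ENSMUSG00000007891.16, chr7:142375911-142388038, minus strand), and had 870.1 TPM in replicate 1 and 1227 TPM in replicate 2. The gap between the means of Ctsb and Ctsd, 239 TPM, was smaller than the sum of their SDs of 636 TPM. Their order is therefore not called beyond the spread, although both libraries gave Ctsb the higher level. Both genes were read in the same libraries, so these SDs include the lower TPM of most genes in replicate 1. The sum is thus no measure of how firmly the order holds. The value of Ctsd has a further limit in its annotation. Another gene on the same strand, Gm49369 (chr7:142371096-142382667), is annotated as protein-coding and shares exons with it. Of the 833 bases of Gm49369-201, 670 lie in exons of Ctsd-202, and of the 819 bases of Gm49369-202, 604 do. The first quantification gave Gm49369 11.7% of the counts of both genes in replicate 1 and 14.8% in replicate 2, and the second gave it 6.19% and 13.7%. How reads were divided between these 2 genes therefore bears on the level of Ctsd.

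Ctss encodes cathepsin S, which trims the invariant chain of MHC class II and keeps its activity at neutral pH. It (ENSMUSG00000038642.10, chr3:95526786-95556403, plus strand) had 357 TPM in replicate 1 and 444 TPM in replicate 2. Its mean of 400.3 ± 61.3 TPM was below that of Ctsd and above that of Ctsc, in each case by more than the sum of the SDs. Upstream of it on the same strand, with 17423 bases between them, lies Ctsk (ENSMUSG00000028111.4, chr3:95499256-95509362), which encodes cathepsin K, the collagen-degrading enzyme of osteoclasts. Ctsk had 22 counts in replicate 1 and 5 in replicate 2, or 0.49 and 0.22 TPM. Neighbours on the chromosome, they were thus among the 3 highest and the lowest of the 10.

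Ctsk was also the only member that did not pass the filter on low counts. Scaled to library size, its CPM was 0.970 in replicate 1, with a Wilson 95% interval of 0.641 to 1.47. It was 0.335 in replicate 2, with an interval of 0.143 to 0.784, and 3 counts correspond to a CPM of 0.132 and 0.201. The ratio of these CPM values, replicate 1 over replicate 2, was 2.90 with an exact 95% counting interval of 1.07 to 9.80. Of 8 osteoclast markers 3 were detected. They were Acp5 at 14.9 ± 1.70 TPM, Nfatc1 at 8.98 ± 1.39 TPM and Atp6v0d2 at 7.80 ± 3.37 TPM, which macrophages also express. In the second quantification 4 of the 8 passed the threshold, with Ocstamp, an osteoclast fusion gene, at 2.38 TPM in replicate 1 and 2.54 TPM in replicate 2, against 0.0600 and 0 TPM in the first. Calcr, the calcitonin receptor of osteoclasts, had 0 counts in both libraries, and the summed level of the 8 markers was 28.0 TPM in replicate 1 and 36.6 TPM in replicate 2.

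The order of the 3 members that followed Ctss was not beyond the spread by the same rule. Ctsc encodes cathepsin C, a dipeptidyl peptidase that activates serine proteases of granules, and had 211 TPM in replicate 1 and 267 TPM in replicate 2 (ENSMUSG00000030560.17, chr7:88278085-88310888, plus strand). Ctsz encodes cathepsin X, a carboxypeptidase, and had 195 and 250.0 TPM (ENSMUSG00000016256.10, chr2:174427493-174439039, minus strand). Ctsa encodes cathepsin A, a serine carboxypeptidase that also protects neuraminidase 1 and beta-galactosidase in a complex, and had 210.4 and 233 TPM (ENSMUSG00000017760.16, chr2:164832873-164841032, plus strand). The gap between the means of Ctsc and Ctsz was 16.4 TPM and that between Ctsz and Ctsa 0.855 TPM, against sums of SDs of 78.4 and 54.9 TPM. Ctsc was above Ctsz in both libraries, while Ctsz was below Ctsa in replicate 1 and above it in replicate 2. These SDs too include the shift between the libraries that most genes share, and Ctsc and Ctsz both read lower in replicate 1.

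Ctsl encodes cathepsin L, an endopeptidase that trims the invariant chain in cortical thymic epithelium, and stood at 114 TPM in replicate 1 and 116 TPM in replicate 2 (ENSMUSG00000021477.9, chr13:64359337-64370890, minus strand). Ctsh encodes cathepsin H, chiefly an aminopeptidase, and had 54.9 and 90.1 TPM (ENSMUSG00000032359.14, chr9:90054152-90076089, plus strand). Ctso, a less studied papain-type member, had 7.03 and 8.21 TPM (ENSMUSG00000028015.3, chr3:81932601-81956725, plus strand). The steps from Ctsa to Ctsl, Ctsl to Ctsh, Ctsh to Ctso and Ctso to Ctsk were each larger than the sum of the SDs. The SD of Ctsl was only 1.38 TPM, while most genes read lower in replicate 1. Ctso, with a mean of 7.62 ± 0.834 TPM, lay at the middle of the protein-coding genes detected, higher than 49.6% of them. Its nearest neighbours in level were Aes and Asf1a above it and Suds3 and Cdc5l below it, all 4 at 7.62 TPM to 3 digits. In all, 6 of the 9 steps in the order were beyond the spread in the first quantification. With its TPM rescaled to nuclear protein-coding genes 6 were as well, and in the second quantification 5 were. There the gap between Ctsb and Ctsd, 365 TPM, exceeded the sum of the SDs of 338 TPM. The gap between Ctss and Ctsc, 48.3 TPM, did not exceed that sum of 48.5 TPM, nor did that between Ctsa and Ctsl, 11.3 against 25.6 TPM, and Ctsl stood above Ctsz.

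On TMM-scaled counts, which correct for depth and composition, none of the 9 members tested was beyond 1.5-fold between the libraries. Of all 13517 genes tested 19.4% were. Those genes were not matched to the members in counts, and the member tested with the fewest, Ctso, had 511 and 356. Whether the 9 members vary less than other genes was not tested. The median log2 ratio of the 9 members, replicate 1 over replicate 2, was -0.01, and that of all genes was 0.00. The highest was that of Ctsl at 0.34, with 6007 counts in replicate 1 and 3204 in replicate 2, and 41.4% of all genes had a larger difference in size. The lowest was that of Ctsh at -0.30, with 2219 and 1840 counts. Of the other 7, Ctsa had a log2 ratio of 0.16, Ctss of 0.12, Ctsz of 0.07, Ctsc of -0.01, Ctso of -0.05, Ctsd of -0.08 and Ctsb of -0.12. The biological coefficient of variation over all genes, the spread between the libraries from edgeR's common dispersion, was 0.21.

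**Figure D2:**
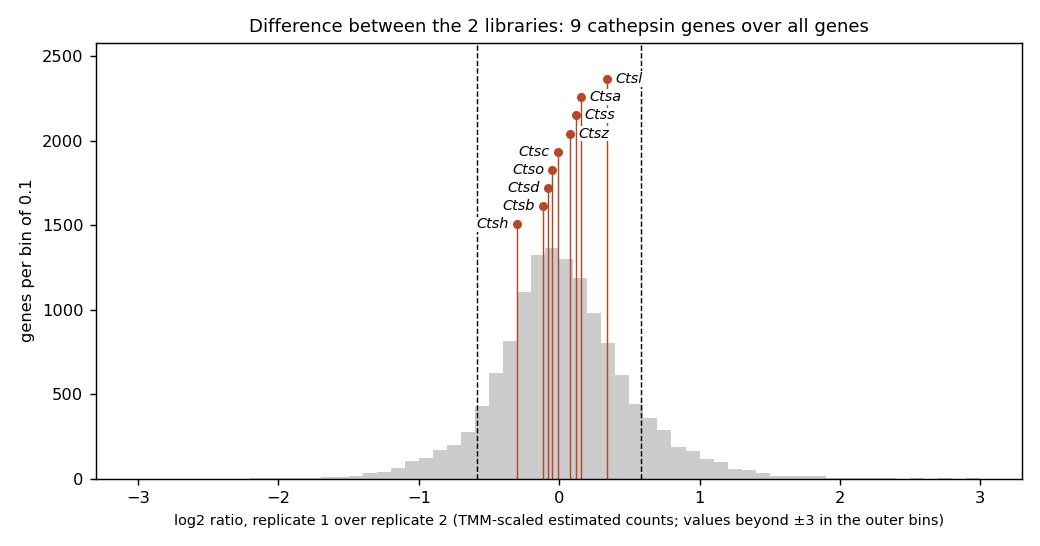
Log2 ratio of TMM-scaled counts, replicate 1 over replicate 2, for all 13517 genes tested (grey, genes per bin of 0.1) and for the 9 cathepsin genes tested (red lines, drawn to different heights for legibility). Dashed lines mark a 1.5-fold difference, and all 9 members lie between them.

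The transcript tables divide each gene among its annotated forms. Ctsz and Ctsk have 1 annotated transcript each, and the other 8 have between 2 (Ctss) and 16 (Ctsa). Reads were assigned to annotated transcripts, so unspliced RNA was counted only where an annotated transcript covers intron sequence. The most abundant transcript was the same in both libraries and both quantifications for 4 of 7 members with several transcripts and at least 10 TPM, which were Ctsb, Ctss, Ctsc and Ctsa, and for 42.1% of 3505 such protein-coding genes.

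The leading transcript of Ctsc ends inside the gene and is called the short form here for its coding sequence. Ctsc-201 has 7 exons, 2493 bases and 462 codons. Ctsc-203 shares its start codon and the coding part of exons 1 and 2, then continues in 2 exons that lie in intron 2 of Ctsc-201 (chr7:88281533-88297082), and has 137 codons. As RNA Ctsc-203 is the longer of the 2, with 3220 bases. Its exon 3 has 85 bases and its last exon 2748 bases (chr7:88288650-88291397). The coding sequences part after exon 2, as the next lines show, with the exon of 85 bases in capitals and the stop codon of the short form at its end (GENCODE M21 transcripts, mm10, plus strand).
Ctsc-203: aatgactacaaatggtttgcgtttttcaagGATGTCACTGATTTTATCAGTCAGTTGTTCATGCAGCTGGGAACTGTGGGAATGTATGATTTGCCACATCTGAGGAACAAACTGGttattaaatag
Ctsc-201: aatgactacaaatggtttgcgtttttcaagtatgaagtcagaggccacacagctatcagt
Ctsc-203 had 110.5 TPM in replicate 1 and 152 TPM in replicate 2, and Ctsc-201 had 51.0 and 72.5 TPM. The TPM of Ctsc-203 was thus 2.16 and 2.10 times that of Ctsc-201, and 2.23 and 2.33 times in the second quantification. Ctsc-203 took 70.7% of the gene's counts in replicate 1 and 71.3% in replicate 2. Its last exon is intron in Ctsc-201, so unspliced RNA of the gene cannot be told apart from the short form there. The lincRNA Gm26522 (chr7:88278787-88283529), on the opposite strand over the start of Ctsc, had 1893 counts in replicate 1 and 1624 in replicate 2, and lies wholly before that exon. Whether the counting used the strand is not given in the sources used here.

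Ctsh was the member with the smallest share of protein-coding transcripts. They held 28.6% of its TPM in replicate 1 and 26.0% in replicate 2. Ctsh-202, annotated as a target of nonsense-mediated decay, the pathway that degrades transcripts with an early stop codon in the cytoplasm, held 37.4% and 38.8%, and 6 retained-intron transcripts held 34.0% and 35.1%. Ctsh-202 lacks exon 3 of Ctsh-201, of 106 bases (chr9:90061519-90061624). The lines below give exon 2 and what follows it in each transcript, with exon 3 of Ctsh-201 and the stop codon of Ctsh-202 in capitals (mm10, plus strand).
Ctsh-201: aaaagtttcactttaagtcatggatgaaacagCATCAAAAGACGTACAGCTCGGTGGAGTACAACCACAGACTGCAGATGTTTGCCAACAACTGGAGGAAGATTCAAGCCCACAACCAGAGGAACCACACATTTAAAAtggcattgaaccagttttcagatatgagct
Ctsh-202: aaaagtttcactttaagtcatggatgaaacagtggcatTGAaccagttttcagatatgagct
Without exon 3 the reading frame of Ctsh-202 closes after 41 codons, against 333 in Ctsh-201. All 1238 bases of Ctsh-202 also lie in Ctsh-201, so only reads across the junction that skips exon 3 tell it from Ctsh-201. Ctsh-202 had 20.5 TPM in replicate 1 and 35.0 TPM in replicate 2, and Ctsh-201 had 15.3 and 23.5 TPM. In the second quantification Ctsh-202 had 9.01 and 18.4 TPM and Ctsh-201 10.7 and 10.4 TPM. The share of Ctsh-202 in the gene's TPM was 16.9% and 26.1% there. The order of these transcripts was therefore the same in 3 of the 4 measurements and not in replicate 1 of the second quantification.

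**Figure D3:**
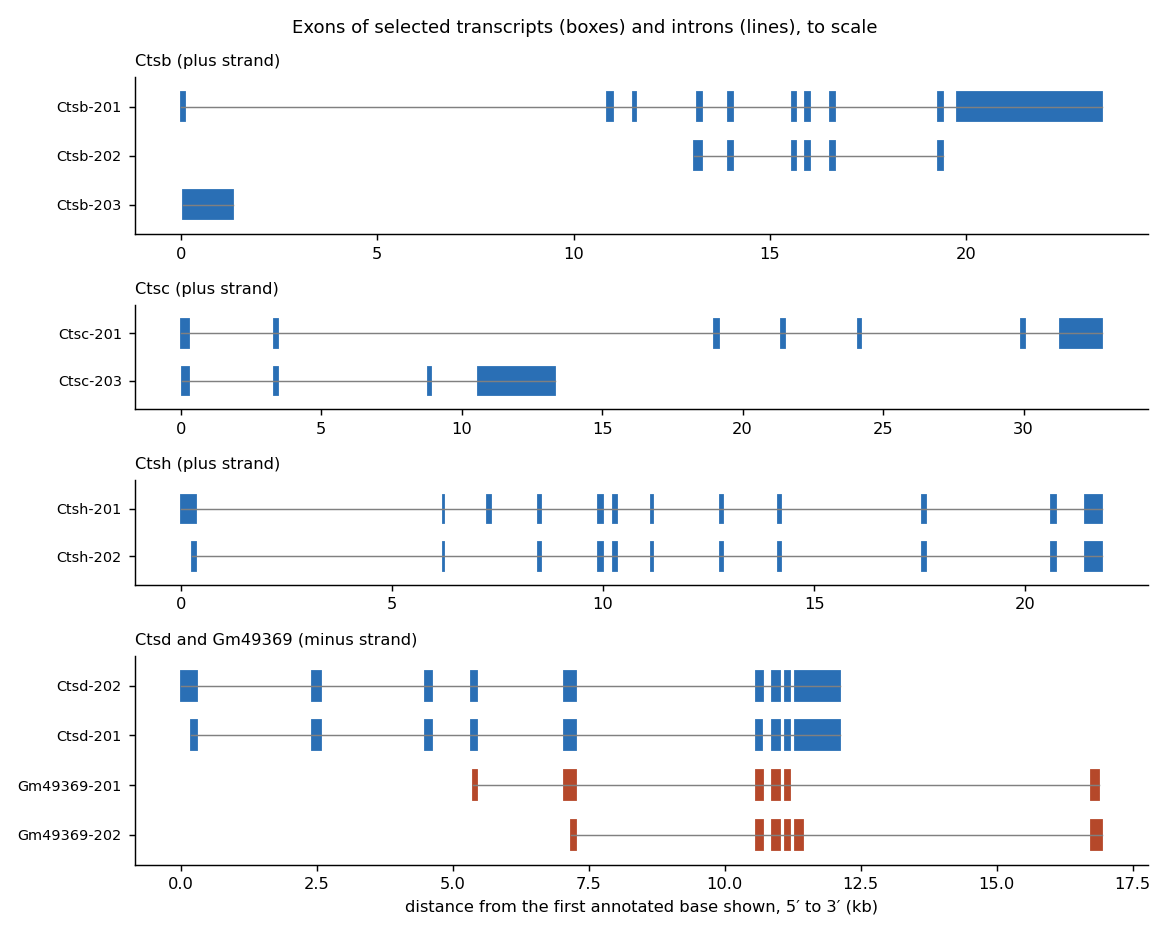
Exons (boxes) and introns (lines) of selected transcripts, as distance in kb from the first annotated base shown, 5′ to 3′, to scale. Ctsb-202 and Ctsb-203 begin or lie in introns of Ctsb-201, Ctsc-203 ends in intron 2 of Ctsc-201, Ctsh-202 lacks 1 exon of Ctsh-201, and Gm49369 (red) shares exons with Ctsd (blue).

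Ctss showed nearly the same transcript make-up in all 4 measurements. Its 2 transcripts, each of 1355 bases, differ by 3 coding bases at the start of exon 2 and by 3 bases at the 3′ end. The 3 coding bases are in capitals in the lines below, which run from the start codon into exon 2 (chr3, plus strand, exon 2 from 95529434 in Ctss-201 and from 95529437 in Ctss-202).
Ctss-201: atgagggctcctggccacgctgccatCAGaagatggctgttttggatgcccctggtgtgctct
Ctss-202: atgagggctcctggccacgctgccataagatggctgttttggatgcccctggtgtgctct
The form without them, Ctss-202 of 340 codons, held 83.8% of the gene's TPM in replicate 1 and 83.7% in replicate 2, and 80.1% and 80.3% in the second quantification. Reads that cross this junction or the 3′ end are the ones that separate the forms, since 1352 bases are shared.

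Ctsd has 2 coding transcripts that also differ by an exon end. Ctsd-202, of 410 codons, has 18 more bases at the end of exon 6 than Ctsd-201, of 404 codons, and is longer by 181 bases at the 5′ end and 6 at the 3′ end. The lines below give the junction of exons 6 and 7, with the 18 bases in capitals (chr7, minus strand, exon 6 from 142377455 down to 142377333 in Ctsd-202 and to 142377351 in Ctsd-201).
Ctsd-202: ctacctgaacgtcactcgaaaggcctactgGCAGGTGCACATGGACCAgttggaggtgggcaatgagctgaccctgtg
Ctsd-201: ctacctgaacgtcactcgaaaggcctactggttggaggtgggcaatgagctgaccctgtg
Ctsd-202 had 374 TPM in replicate 1 and 684 TPM in replicate 2, and Ctsd-201 had 493 and 539 TPM, so the leading form differed between the libraries. In the second quantification Ctsd-202 had 453 and 460.0 TPM and Ctsd-201 43.4 and 210.1 TPM. The ratio of Ctsd-202 to Ctsd-201 was 0.758 in replicate 1 and 1.27 in replicate 2, and 10.5 and 2.19 in the second quantification. Gm49369 shares the longer exon 6, so reads of that stretch are shared with Ctsd-202, and the part of this in the ratio was not tested.

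**Figure D4:**
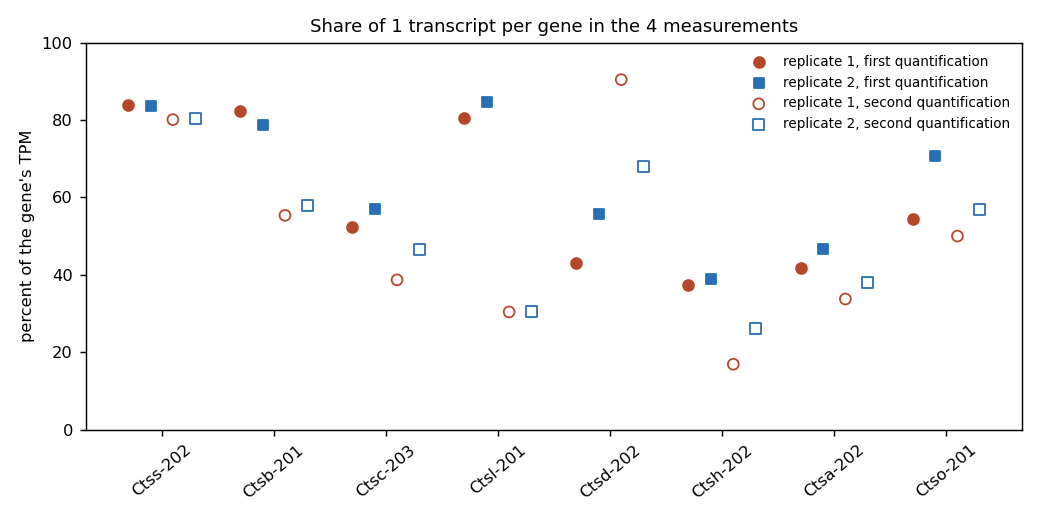
Percent of the gene's TPM on 1 transcript of each gene, in replicate 1 (circles) and replicate 2 (squares), for the first (filled) and second (open) quantification. Ctss-202 lies between 80.1% and 83.8% in all 4, while Ctsd-202 lies between 42.9% and 90.5% and Ctsl-201 stands at 80.4% and 84.7% in the first quantification and at 30.4% in each library in the second.

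Ctsb had 3 transcripts. Ctsb-201, the full-length coding one of 10 exons and 4743 bases, held 82.3% of its TPM in replicate 1 and 78.7% in replicate 2. Ctsb-203 is 1 exon of 1269 bases of which 1217 lie in intron 1, and had 90.8 TPM in replicate 1 and 89.0 TPM in replicate 2. Ctsb-202, of 801 bases, begins 90 bases before exon 4 and is otherwise spliced. The line below gives those 90 bases in capitals and the start of exon 4 in lower case, as the part that tells this transcript from Ctsb-201 at its start (chr14:63135518-63135637, plus strand).
Ctsb-202: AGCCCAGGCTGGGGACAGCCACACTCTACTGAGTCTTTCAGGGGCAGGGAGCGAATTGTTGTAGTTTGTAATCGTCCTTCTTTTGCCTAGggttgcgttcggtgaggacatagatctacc
Ctsb-202 had 89.1 TPM in replicate 1 and 243 TPM in replicate 2, but 304 and 413 TPM in the second quantification. It shares 710 bases with Ctsb-201, and its counts were 1796 and 2473 in the first quantification beside 11385 and 10825 in the second. Ctsb-203, which is nearly all intron, had 54.7 TPM in replicate 1 and 52.3 TPM in replicate 2 in the second quantification.

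Retained-intron transcripts are annotated for 7 members. Their share of the gene's TPM was lowest for Ctsd, at 0.411% in replicate 1 and 0.285% in replicate 2. It was 10.3% and 5.90% for Ctsl, 17.2% and 11.6% for Ctso, and 17.7% and 21.3% for Ctsb. It was 22.7% and 15.2% for Ctsc, 36.6% and 20.9% for Ctsa, and 34.0% and 35.1% for Ctsh. The median of the 7 was 17.7% and 15.2%, beside 35.2% and 34.3% over 5803 protein-coding genes with such a transcript. In the second quantification the median of the 7 was 43.1% and 34.9%, beside 38.8% and 39.4% for those genes, so the place of the members depended on the quantification. There the share was 34.3% and 47.1% for Ctsl, whose retained-intron transcript Ctsl-202 was its most abundant in both libraries. It was 44.6% and 42.1% for Ctsb. The shares of Ctsd, Ctsc, Ctsa and Ctsh were also higher there in both libraries, while Ctso had 16.6% and 13.4%. Short transcripts also weigh more in TPM than in reads: by counts the retained-intron share of Ctsb was 3.73% in replicate 1 and 4.09% in replicate 2. That of Ctsh, with a retained-intron transcript of 2743 bases, stayed near its share of TPM, at 33.6% and 35.4% by counts.

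Ctsa differed most between the libraries in this share. Ctsa-212, a transcript of 436 bases that keeps intron 2, of 111 bases, had 34.6 TPM from 258 counts in replicate 1 and 3.37 TPM from 13.1 counts in replicate 2. In the second quantification it stood at 24.0 and 5.52 TPM. The most abundant transcript of the gene, Ctsa-202, had 87.7 TPM in replicate 1 and 109 TPM in replicate 2. Near its 3′ end Ctsa overlaps Pltp on the opposite strand, which had 6615 counts in replicate 1 and 3420 in replicate 2, and without a statement on strand the reads of the overlap are uncertain. None of the genes overlapping a member other than Pltp, Gm26522 and Gm49369 had more than 2.16% of the counts of that member. Ctso-202, a processed transcript with 669 of its 1048 bases in intron 3, held 28.4% of the TPM of Ctso in replicate 1 and 17.7% in replicate 2, or 2.00 and 1.45 TPM.

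**Figure D5:**
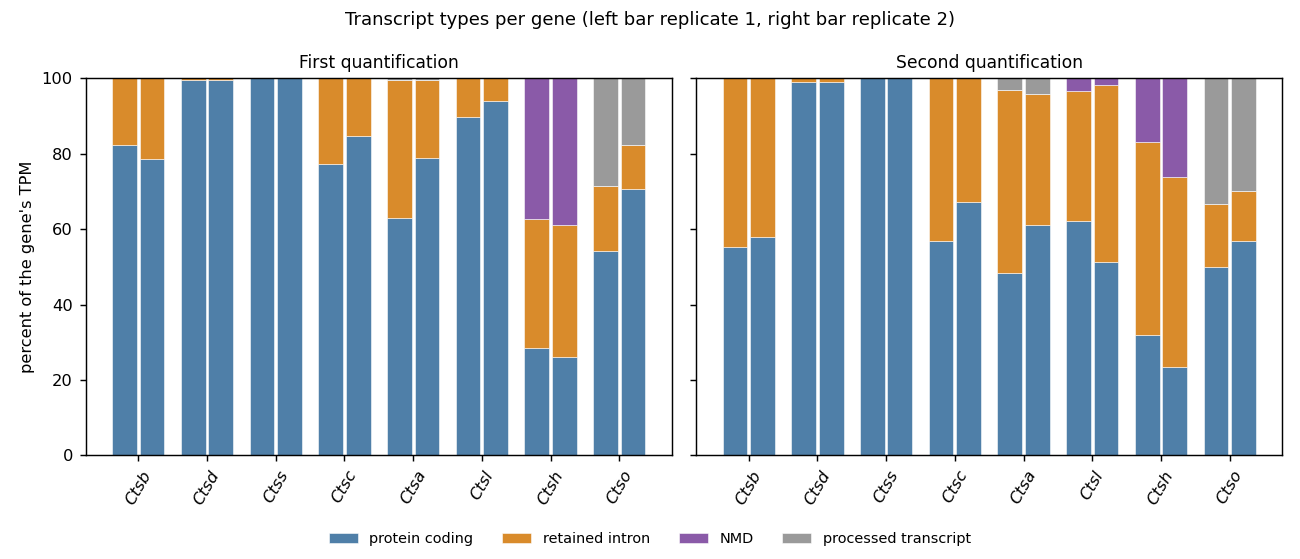
Percent of each gene's TPM on protein-coding, retained-intron, nonsense-mediated decay (NMD) and processed transcripts, for the 8 cathepsin genes with several transcripts, in the first (left panel) and second (right panel) quantification. In each pair the left bar is replicate 1 and the right bar replicate 2. Protein-coding transcripts hold 28.6% and 26.0% of Ctsh in the first quantification and 99.6% and 99.7% of Ctsd.

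Of 13 other cathepsin genes 1 was detected. It was Ctsf, a papain-type gene, at 1.64 ± 0.0212 TPM. Ctsw, which marks cytotoxic lymphocytes and natural killer cells, had 17 counts in replicate 1 and 18 in replicate 2, or 0.760 and 2.28 TPM. The second quantification placed these genes on the other side of the threshold, with Ctsf at 0.927 and 0.816 TPM and Ctsw at 1.07 and 2.72 TPM. All 5 T and natural killer cell markers had 0 counts in the first quantification. In the second Cd3d, a chain of the T cell receptor complex, stood at 3.01 TPM in replicate 1 and 13.1 TPM in replicate 2, and Nkg7, Gzmb and Ncr1 were at 0. Ctse, an aspartic protease, had 14 and 4 counts. Ctsg, a serine protease of neutrophil granules, had 2 counts in replicate 1 and 0 in replicate 2, and of 7 neutrophil markers Elane and Ly6g had 0 counts in both. The other 9 lie in a cluster of cathepsin genes on chromosome 13, most of them known from placenta, and had 0 counts in both libraries in the first quantification. The second gave Ctsq 0.307 and 1.15 TPM and Cts8 0.323 and 0.632 TPM. Between the libraries 2 of the 13 genes were tested, and Ctsw was beyond 1.5-fold with a log2 ratio of -0.59.

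The inhibitor genes listed came to a far smaller sum of TPM than the 10 cathepsin genes. Of 14 inhibitor genes 4 were detected and 7 had 0 counts in both libraries, of which 5 were also at 0 in the second quantification. The highest were Cst3, the secreted cystatin C, at 38.6 ± 1.23 TPM, Serpinb6a, an intracellular serine protease inhibitor, at 35.1 ± 3.75 TPM, and Cstb, the cytosolic stefin B, at 21.7 ± 3.51 TPM. All 14 together came to 98.2 TPM in replicate 1 and 112 TPM in replicate 2, against 3037 and 4195 TPM for the 10 cathepsins. Both sums mix protease classes. The 10 include Ctsd and Ctsa, together at 1080 and 1460 TPM, beside 1956 and 2735 TPM for the 8 papain-type members, and the 14 include serine protease inhibitors. The sums therefore do not measure a balance of enzymes and their inhibitors. None of the 5 inhibitor genes tested was beyond 1.5-fold between the libraries, beside 19.4% of all genes tested.

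Genes listed under cathepsin sorting and maturation were all detected, 10 of 10, against 38.9% of all protein-coding genes. Psap, the precursor of the saposins, had 2504 ± 517 TPM and was thus above every cathepsin. Grn, the precursor of granulins, which cathepsins cleave, had 481 ± 97.5 TPM. Lgmn, the asparaginyl endopeptidase that takes part in the maturation of several cathepsins, had 303 ± 61.3 TPM. The mannose 6-phosphate receptors were lower, with M6pr at 60.3 ± 11.3 TPM and Igf2r at 28.3 ± 7.69 TPM. By TMM-scaled counts none of the 10 genes of this list was beyond 1.5-fold between the libraries, beside 19.4% of all genes tested. The partners of cathepsin A in its complex were lower than Ctsa itself, with Glb1 at 15.3 ± 1.73 TPM and Neu1 at 11.7 ± 1.74 TPM. Of the MiT/TFE factors, a family that includes the activators of lysosomal genes, Tfec had 142 ± 53.4 TPM and Mitf 49.8 ± 4.55 TPM. Tfe3 had 14.0 ± 3.71 TPM. Tfeb was the lowest of the 4, at 3.40 TPM in replicate 1 and 3.13 TPM in replicate 2. In the second quantification Tfeb stood at 7.19 and 7.46 TPM.

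Markers of other cells the culture could hold were mostly below 1 TPM. Mast cell markers were at 0 counts for 4 of 5 genes, and the other, Cpa3, had 1 count in replicate 1. Of 5 dendritic cell markers 1 was detected, Zbtb46 at 1.58 ± 0.757 TPM, followed by Ccr7 at 0.530 ± 0.0990 TPM and Xcr1 at 0.250 ± 0.0849 TPM, and their sum was 2.24 TPM in replicate 1 and 3.29 TPM in replicate 2. The 4 B cell markers, led by Cd79b, Cd79a and Ms4a1, summed to 0.410 TPM in each library. Of 7 neutrophil markers 1 was detected, S100a9 at 1.56 ± 0.0354 TPM, followed by Ngp and S100a8. Of 5 stromal and endothelial markers 1 was detected, Kdr at 3.25 ± 0.311 TPM, followed by Pecam1 and Col1a1. The quantifications disagreed on Pecam1, an adhesion molecule of endothelium and some leukocytes, which had 0.210 TPM in replicate 1 and 0.600 TPM in replicate 2 in the first and 3.53 and 13.4 TPM in the second. Between the libraries 1 of 4 dendritic cell markers tested was beyond 1.5-fold, Ccr7 with a log2 ratio of 0.77 from 37 and 14 counts. Of 2 stromal and endothelial markers tested 1 was, Pecam1 with a log2 ratio of -1.02 from 20 and 29 counts. In bulk RNA fewer cells of a type and less RNA per cell cannot be told apart. The part of these cells in the cathepsin levels was not tested.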

How the data were processed

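The authors' first quantification gave gene and transcript tables, and their second gave transcript tables only. Per the file headers and notes, the first used reads aligned to mm10 transcripts of GENCODE M21, and the second used the reads directly. Which programs made them is not given in the sources used here. Estimated counts, as deposited, need not be whole and were rounded for edgeR and DESeq2. The deposited TPM values are per transcript length and have the same sum in each library. The deposited FPKM values served as an alternative. The authors' bounds of TPM (unit signal) are not printed.

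Genes were matched by symbol, and coordinates, transcript types and sequences came from GENCODE M21. Ratios used edgeR 4.0.16 in R 4.3.3 with filterByExpr, TMM scaling and a prior count of 2, and the script was tested on simulated data. DESeq2 1.42.0 size factors, other filters, prior counts, scalings and the second quantification were the alternatives. Tables were made with Python 3.11.15 and pandas 2.3.3. With 1 group of 2 libraries no test between conditions was possible and no p-value is given: a difference is called beyond 1.5-fold. Levels are called beyond their spread where the gap exceeds the sum of the SDs and both libraries give the same order. That sum does not remove a shift between the libraries that both genes share, so it does not measure how firmly an order holds. For detected protein-coding genes, 1 TPM corresponded to a median of 74.8 counts in replicate 1 and 38.3 in replicate 2. The members and lists were chosen with earlier results of these data known. Named were all members and, of each list, the 3 highest genes and lineage-defining cathepsins, plus the 2 genes next above and below the highest and lowest member at 1 TPM or more. Named outside that rule, after their values were seen, were overlapping genes, Calcr, Ocstamp, Cd3d, Elane, Ly6g, Nkg7, Gzmb, Ncr1, Ctsq, Cts8, Tfeb, M6pr and Igf2r.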

Additional observations from a re-analysis of the deposited data

How the results depend on the processing

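No paired comparison of conditions was possible because there is 1 group. The number of members at 100 TPM or more in both libraries, 7, was 7 in the second quantification and 8 with TPM rescaled to nuclear protein-coding genes. That rescaling raised every level, for Ctsb from 1017 to 5719 TPM in replicate 1 and from 1559 to 7137 TPM in replicate 2. A threshold of 100 is therefore lower on that scale, and the 8 is not a check of the 7. The median level of the members, 222 TPM, was 157 TPM in the second quantification, 296 as FPKM and 1123 after that rescaling, and 203 to 241 TPM with either library left out. Among the 9 members that passed the filter on low counts, the number beyond 1.5-fold was 0 under all 7 alternatives. Ctsk, left out by that filter with its 22 and 5 counts, was beyond 1.5-fold in each of the 3 alternatives that give it a value: log2 ratios of 1.32 without the filter, where the number became 1, of 1.26 with centred TPM and of 0.85 with that of the second quantification. Signs of ratios near 0 changed for Ctsc without the filter, and for Ctsc and Ctso with centred TPM of either quantification. The median retained-intron share, 16.5%, was 39.0% in the second quantification and 3.44% by counts, and 15.2% to 17.7% with either library left out. The share of cathepsins in all counts, 1.14%, was 1.76% when only nuclear protein-coding genes were counted, and 1.10% to 1.17% with either library left out. Depth limits Ctsk and short transcripts with few counts, such as Ctsa-212. With 2 libraries an SD rests on 1 difference, and the cause of the differences between quantifications was not tested.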
